A study of Mus musculus with 6 samples.

Results

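Neuropeptides and peptide hormones are made as larger precursors that pass through the secretory pathway and are cut and trimmed on the way into dense-core granules. Prohormone convertases cut at pairs of basic residues, a carboxypeptidase removes the basic residues left at the new end, and an amidating enzyme converts a terminal glycine into an amide. Other peptidases act at the cell surface, where they activate or degrade peptides such as angiotensin and endothelin. The 8 genes described here stand for these steps. They were chosen by gene name and are the convertases Pcsk1 and Pcsk2, the convertase-binding proteins Pcsk1n and Scg5, the enzymes Cpe and Pam, and the surface peptidases Ace and Ece1. All 8 were found among the 54532 genes listed. The choice was made with the difference between the groups already known, so the differences of these 8 genes are given as a description and carry no test.

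The N2a (Neuro2A) line comes from a mouse neuroblastoma and is labelled with the strain C57BL/6. RNA was sequenced from 3 libraries of cells given si-NC, a control siRNA, and from 3 libraries of cells given si-circRtn4, an siRNA against the circular RNA of Rtn4. The comparison was made to find genes that differ after circRtn4 knockdown. The labels give growth medium with fetal bovine serum for all libraries, whereas the study's general methods describe retinoic acid differentiation after transfection, so the differentiation state of these cells is not settled. The knockdown was made with 1 siRNA sequence and without a second one, and the labels do not say whether the libraries came from separate cultures, so that p-values measure the spread between these libraries, which may be technical. The authors deposited FPKM, the fragments on a gene scaled by its length and by library depth, and the libraries held 13541198 to 15122063 reads on genes. The gene value of Rtn4 does not tell linear from circular RNA and gives no check of the knockdown. By qRT-PCR in N2a cells, the study reported an efficient knockdown of circRtn4 without a significant change of linear Rtn4 mRNA.

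Markers of sympathetic neuroblastoma were present, whereas those of fibroblasts and immune cells were near 0. The summed level of 8 sympathetic markers was 971 to 1080 FPKM in the si-NC libraries and 693 to 963 FPKM in the si-circRtn4 libraries. The largest part was Tubb3, at means of 538 FPKM in si-NC and 433 FPKM in si-circRtn4. All 8 had a mean over the 6 libraries above the filter of 1 FPKM. Of these, Phox2a, Th and Dbh fell in limma, and the other 5 were not called. Th and Dbh were below 1 FPKM in every si-circRtn4 library, at means of 0.712 and 0.602 FPKM. The 5 fibroblast markers summed to at most 0.786 FPKM in any library and the 5 immune markers to at most 1.38 FPKM. The 5 glial markers summed to 4.23 to 5.41 FPKM in si-NC and 3.15 to 4.83 FPKM in si-circRtn4, nearly all of it from Mbp. A small RNA gene, Gm23935, took 20.1% to 20.7% of all FPKM in si-NC and 13.5% to 18.8% in si-circRtn4.

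Of the 8 genes, 6 reached a mean of 1 FPKM over the 6 libraries and were fitted with the other genes. Each of these 6 was lower in every si-circRtn4 library than in any si-NC library. Ace showed by far the largest difference, at 22.8% of its si-NC level, followed by Pcsk2 at 49.0%, Scg5 at 63.9%, Pam at 65.6%, Pcsk1n at 69.8% and Cpe at 81.5%. Pcsk1 and Ece1 were at or near 0 in both groups. Over all 12749 genes tested, 15.5% had all si-circRtn4 libraries below all si-NC libraries, and nothing is read from the count of these genes because they were chosen with this difference known. In RNA from whole cultures, fewer cells with a transcript and less of it per cell cannot be told apart.

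**Figure D1:**
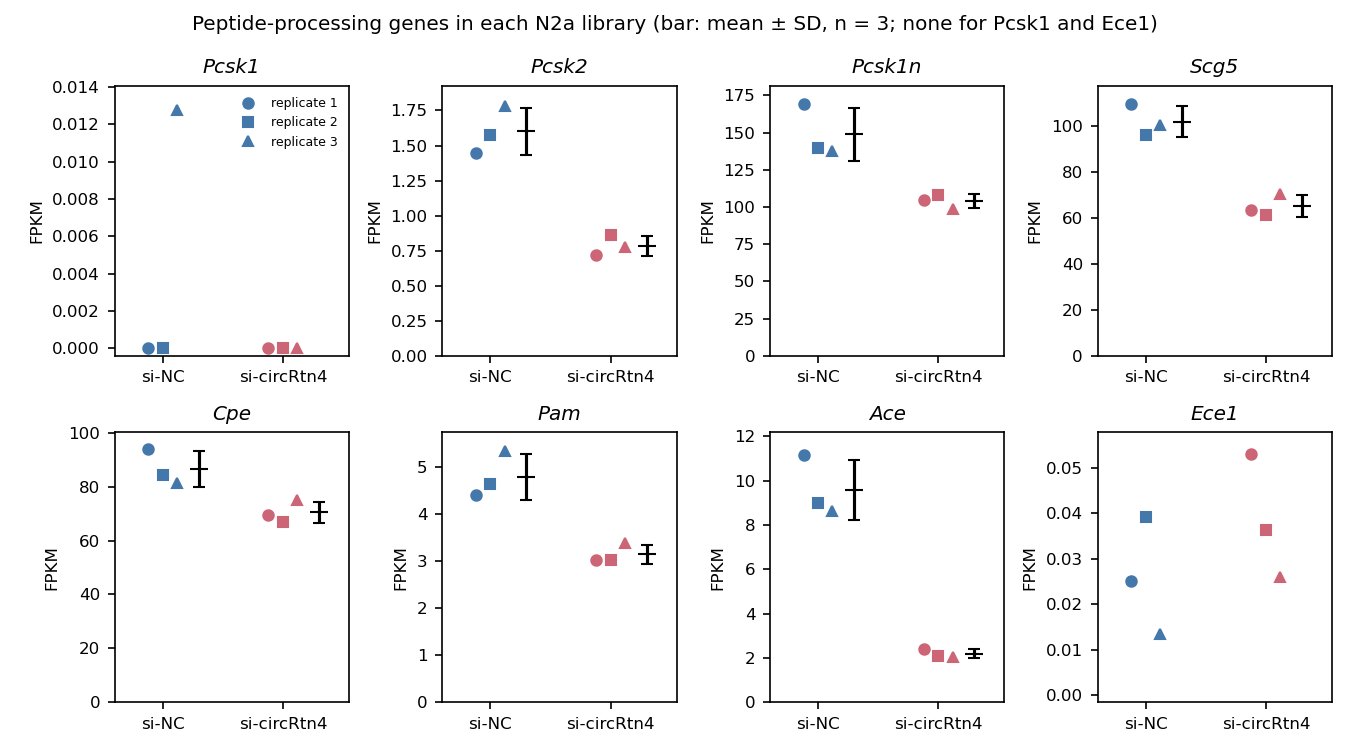
FPKM of the 8 peptide-processing genes (vertical axes, each with its own scale) in the si-NC and si-circRtn4 libraries, where a symbol marks the replicate number and the bar gives the mean and SD of 3 libraries. For Pcsk2, Pcsk1n, Scg5, Cpe, Pam and Ace the groups do not overlap, whereas Pcsk1 and Ece1 stay below 0.06 FPKM and carry no bar.

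The transcripts of the prohormone convertases themselves were scarce. Pcsk1 (proprotein convertase subtilisin/kexin type 1, ENSMUSG00000021587, chromosome 13, 75089826 to 75134861, plus strand, GRCm38) makes the first cuts in many prohormones in endocrine cells and neurons. It had 1 read in si-NC replicate 3 and 0 reads in the other 5 libraries. A count of 0 allows up to 3 reads (the one-sided 95% limit), which is 0.0344 to 0.0376 FPKM in the libraries without a read, a limit that covers counting error only. Its transcript was therefore not detectable at this depth in either group, and no fold is given. The promoter of Pcsk1 is shown because it holds, in capitals, a full cAMP response element (TGACGTCA) 78 bases before the start site and a separate short form of it (TGACG) 50 bases before it. The sequence (chr13:75089607-75089906, plus strand, RefSeq, GRCm38.p6) covers 250 bases before and 50 after the start site.
Pcsk1 promoter: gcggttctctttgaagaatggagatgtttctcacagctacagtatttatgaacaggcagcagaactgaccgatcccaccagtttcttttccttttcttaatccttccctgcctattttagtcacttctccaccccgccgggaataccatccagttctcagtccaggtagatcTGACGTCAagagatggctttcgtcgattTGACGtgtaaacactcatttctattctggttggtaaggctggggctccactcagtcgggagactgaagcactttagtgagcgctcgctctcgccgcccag

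A full element, searched on both strands, occurred in 1.79% of 32851 promoters of the same length, and the promoter of Pcsk1 was the only one of the 7 gene promoters matched here that held it (Cpe was not matched). The short form, which also matches inside the full one, occurred in 20.8% of all promoters and in those of Pcsk1, Pcsk2 and Scg5. These matches are letters in a window and say nothing of whether a factor binds there.

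Pcsk2 (ENSMUSG00000027419, chromosome 2, 143546156 to 143816285, plus strand) makes later cuts, often to smaller peptides. The si-NC libraries gave 1.45, 1.58 and 1.78 FPKM, against 0.720, 0.861 and 0.774 FPKM in si-circRtn4. All si-circRtn4 values lay below the lowest si-NC value, at means of 0.785 ± 0.0712 against 1.60 ± 0.167 FPKM (SD, n = 3 each). The log2 fold change was -0.54 (standard error 0.13) on the log2(FPKM + 1) scale, which understates differences near 1 FPKM. With a pseudocount of 0.1 it was -0.94, and with limma-voom on the recovered reads it was -0.997. Between 81 and 197 reads stood behind each value. Antisense genes overlap Pcsk2, of which Pcsk2os1 was at 0.577 FPKM in si-NC and 0.571 FPKM in si-circRtn4, and it is not stated whether strand was used in counting.

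The other members of the convertase family were set beside them as a list of 6 genes. They cut precursors mainly in the constitutive secretory pathway, the early secretory compartments or at the cell surface. Of the 5 tested, 0 were called at an adjusted p under 0.05 in limma or in limma-voom, and 1 (Pcsk7) passed an unadjusted p under 0.05. Pcsk7 was at 82.4% of its si-NC mean (log2 fold change -0.23), near the 81.5% of Cpe. For 2 of the 5, Pcsk7 and Mbtps1, all si-circRtn4 values lay below all si-NC values, as for 15.5% of all genes tested. Log2 fold changes were below 0 for 4 of the 5 and above 0 for 1. Over all genes tested, 4.82% were called lower and 4.36% higher. The median log2 fold change of the 5 was -0.034, against 0.0020 over all genes tested. Mbtps1, the site-1 protease, was the most abundant at 19.1 ± 0.302 FPKM in si-NC and 17.5 ± 0.346 FPKM in si-circRtn4 (SD, n = 3 each), at a log2 fold change of -0.13 with standard error 0.064 (adjusted p = 0.266 from limma). Furin, the convertase of the trans-Golgi network, was at 10.5 ± 2.21 and 10.3 ± 0.984 FPKM, and Pcsk6 at 10.7 ± 1.53 FPKM in si-NC, with a si-circRtn4 mean at 103% of it. Per length, Pcsk2 was thus the lowest of the 6 convertases tested in si-NC, below Pcsk4 at 2.99 ± 0.378 FPKM and Pcsk7 at 4.90 ± 0.263 FPKM. Furin and Pcsk6 overlapped in both groups and could not be ordered. Pcsk5 was listed at 0 in all libraries.

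**Figure D2:**
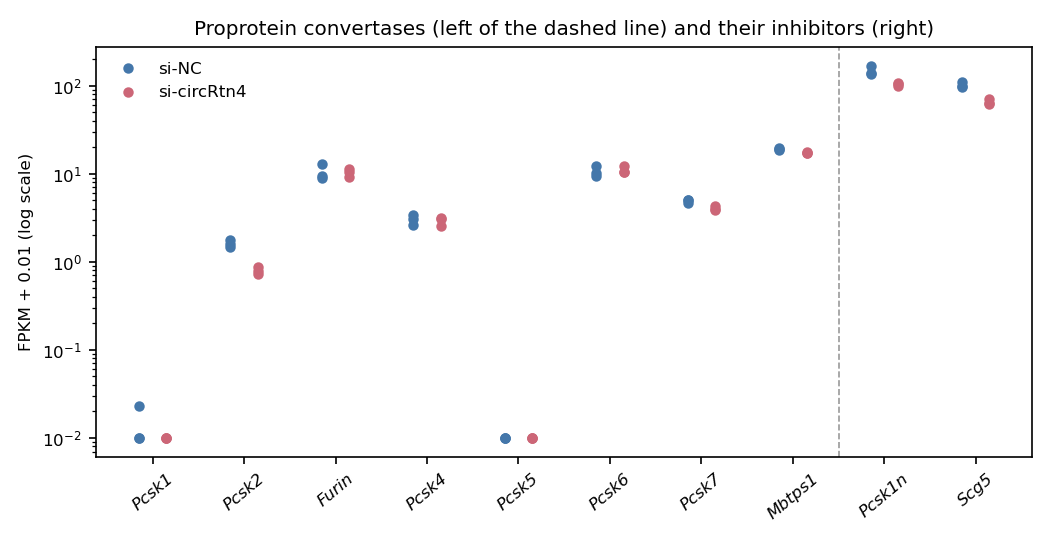
FPKM plus 0.01 on a log axis for 8 proprotein convertases and for the 2 convertase-binding proteins Pcsk1n and Scg5, with 1 point for each si-NC and si-circRtn4 library. Pcsk1n and Scg5 lie above every convertase in all 6 libraries, and Pcsk2 lies below Pcsk4 in each of them.

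The transcripts of the proteins that bind the convertases were far more abundant than those of the convertases, and protein was not measured here. Pcsk1n encodes proSAAS, which binds and inhibits the enzyme made from Pcsk1. The gene (ENSMUSG00000039278, chromosome X, 7919822 to 7924410, plus strand) had the highest level of the 8. The si-NC libraries gave 169, 140 and 137 FPKM, against 105, 108 and 98.7 FPKM in si-circRtn4. The si-NC values were above those of 97.9% of the genes tested, and replicate 1 stood well above the other two. Means were 149 ± 17.6 and 104 ± 4.79 FPKM (SD, n = 3 each), and the log2 fold change was -0.51 (standard error 0.098).

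Scg5 (ENSMUSG00000023236, chromosome 2, 113776362 to 113829121, minus strand) encodes a granule protein that escorts the precursor of the Pcsk2 enzyme and inhibits it until the granule matures. The si-NC libraries gave 109, 95.8 and 100.2 FPKM, against 63.3, 61.4 and 70.5 FPKM in si-circRtn4. The gap between the groups, from 70.5 to 95.8 FPKM, was wider than the range within either group. The log2 fold change was -0.64 (standard error 0.086), with means of 102 ± 6.81 and 65.1 ± 4.84 FPKM (SD, n = 3 each). Within a library, Scg5 exceeded Pcsk2 56.3 to 75.4 times in si-NC and 71.3 to 91.1 times in si-circRtn4, so that these ratios of FPKM overlapped between the groups. The promoter of Scg5 (chr2:113829042-113829341, minus strand, RefSeq, GRCm38.p6) is shown with its short elements TGACG, on either strand, in capitals.
Scg5 promoter: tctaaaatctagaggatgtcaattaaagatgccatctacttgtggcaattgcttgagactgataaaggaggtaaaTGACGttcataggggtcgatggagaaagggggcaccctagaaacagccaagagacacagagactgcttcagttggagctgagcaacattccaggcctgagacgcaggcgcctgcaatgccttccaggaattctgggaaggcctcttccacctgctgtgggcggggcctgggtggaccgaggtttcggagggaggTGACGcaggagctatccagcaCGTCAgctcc

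The element nearest the 5′ end starts 175 bases before the start site, and the other 2 lie 19 and 40 bases after it. The promoter of Pcsk2 holds the same letters once, 34 bases before its start site. It has a GC content of 76.3%, against 54.0% for Scg5 and a median of 52.7% over all promoters.

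The transcripts of the 2 enzymes that finish the peptides differed in level. Cpe (carboxypeptidase E, ENSMUSG00000037852, chromosome 8, 64592542 to 64693054, minus strand) trims basic residues after the convertases have cut. The si-NC libraries gave 93.9, 84.2 and 81.2 FPKM, against 69.4, 67.0 and 74.8 FPKM in si-circRtn4. This was the smallest relative difference of the 6 genes, with 6.33 FPKM between the nearest values of the groups. The means were 86.4 ± 6.66 and 70.4 ± 4.01 FPKM (SD, n = 3 each), and the log2 fold change was -0.29 (standard error 0.085). Cpe was therefore lower by a smaller factor than Scg5, which lay above Cpe in every si-NC library at 1.14 to 1.23 times its FPKM and below it in every si-circRtn4 library at 0.911 to 0.942 times.

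Pam (peptidylglycine alpha-amidating monooxygenase, ENSMUSG00000026335, chromosome 1, 97795114 to 98095646, minus strand) needs copper and ascorbate to amidate peptides. The si-NC libraries gave 4.41, 4.64 and 5.35 FPKM, against 3.04, 3.02 and 3.38 FPKM in si-circRtn4. The highest si-circRtn4 value lay below the lowest si-NC value, and the means were 4.80 ± 0.490 and 3.15 ± 0.205 FPKM (SD, n = 3 each). The log2 fold change was -0.48 (standard error 0.096). The pseudogene Gm3531 overlaps the span of Pam on the same strand, at 29.1 FPKM in si-NC and 29.5 FPKM in si-circRtn4. How reads on such overlaps were counted is not stated. Cpe exceeded Pam 15.2 to 21.3 times in si-NC and 22.1 to 22.8 times in si-circRtn4 in FPKM.

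Ace and Ece1 act outside the granule. Ace (angiotensin I converting enzyme, ENSMUSG00000020681, chromosome 11, 105967945 to 105989964, plus strand) removes dipeptides from the ends of peptides, among them angiotensin I. The si-NC libraries gave 11.1, 8.99 and 8.62 FPKM, against 2.42, 2.08 and 2.07 FPKM in si-circRtn4. Every si-circRtn4 value was below 3 FPKM and every si-NC value above 8 FPKM, with 638 to 889 reads per library in si-NC and 159 to 182 in si-circRtn4. The means were 9.58 ± 1.36 and 2.19 ± 0.200 FPKM (SD, n = 3 each). Its log2 fold change of -1.72 (standard error 0.11) was the 11th lowest of the 12749 genes tested, and it was -2.08 with a pseudocount of 0.1 and -2.10 with limma-voom. Ace exceeded Pam in FPKM 1.61 to 2.53 times in si-NC and was at 0.611 to 0.796 times its level in si-circRtn4, so that the order of the pair turned.

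The promoter of Ace at the start of the gene (chr11:105967698-105967997, plus strand, RefSeq, GRCm38.p6) is shown because Ace had the largest difference. RefSeq lists 2 promoters for it, and FPKM of the gene does not tell them apart. Capitals mark a TATA box (TATAAA, read on the minus strand here) that begins 31 bases before the start site, which 13.6% of all promoters hold on either strand and no other matched promoter of the 8 genes.
Ace promoter: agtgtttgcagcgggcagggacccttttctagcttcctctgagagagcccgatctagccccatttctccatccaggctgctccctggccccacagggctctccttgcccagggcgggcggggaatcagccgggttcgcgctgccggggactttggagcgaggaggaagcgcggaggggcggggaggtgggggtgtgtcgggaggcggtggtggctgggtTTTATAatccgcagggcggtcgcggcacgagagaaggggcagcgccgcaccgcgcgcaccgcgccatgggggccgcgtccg

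All 7 matched promoters held at least 1 GC box (GGGCGG, either strand), against 35.7% of all promoters, with 7 in Pcsk2 and 4 in Ace. Neighbouring genes on chromosome 11 were also read. The nearest protein-coding gene before Ace is Cyb561, which lies 14609 bases away on the opposite strand, and Ace3 on the other side did not exceed 0.0580 FPKM.

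Ece1 (endothelin converting enzyme 1, ENSMUSG00000057530, chromosome 4, 137862237 to 137965229, plus strand) cuts the endothelin precursor. It had 2, 3 and 1 reads in the si-NC libraries and 4, 3 and 2 reads in the si-circRtn4 libraries, or 0.0135 to 0.0531 FPKM. The exact 95% Poisson intervals of these counts all overlapped, and no difference was detectable at this depth.

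**Figure D3:**
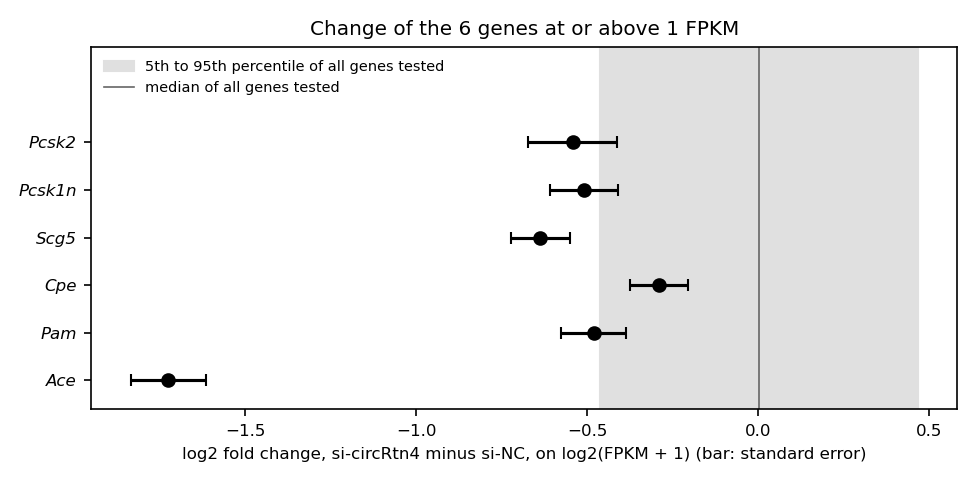
Log2 fold change (si-circRtn4 minus si-NC, on log2(FPKM + 1)) of the 6 fitted genes with standard errors, over a band from the 5th to the 95th percentile of all 12749 genes tested. Ace lies at -1.72, Cpe at -0.29 lies inside the band, and the other 4 lie between -0.64 and -0.48.

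In the fit over all genes, 615 genes (4.82%) were lower and 556 (4.36%) higher past an adjusted p of 0.05 in limma with Benjamini-Hochberg adjustment. After rescaling to TPM, which gives every library an equal sum, 400 were lower and 977 higher, and with Gm23935 removed before that rescaling 541 were lower and 593 higher. Of the 6 fitted genes, 4 were called lower under TPM, where Pcsk2 was not, and 5 under TPM without Gm23935. Of the 6 fitted genes 5 were among the lower ones, with Cpe outside, and with replicate number as a block all 6 were, where 9.75% of all genes were lower. This count is set beside the background only to describe the genes, since they were picked with the contrast known. Ace and Scg5 were called in each of 15 alternatives, and the call of Pcsk2 was lost in each of the 6 fits that left out 1 library. These calls rest on the contrast with which the genes were picked, so they describe the fits and lend the differences no support. The number of the 6 called was 2 without replicate 2 of si-NC and without replicate 1 or 2 of si-circRtn4. Those fits called 217, 308 and 265 of all genes lower, in that order, against 615 in the reported fit.

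The genes also differed in how they varied within the groups. In si-NC, replicate 1 was the highest library for Cpe, Scg5, Pcsk1n and Ace, and it was the lowest for Pcsk2 and Pam. Replicate 3 was the highest for Pcsk2 and Pam. The coefficient of variation was between 6.69% for Scg5 and 14.2% for Ace in si-NC, and between 4.61% for Pcsk1n and 9.14% for Ace in si-circRtn4.

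The protein-coding genes whose log2(FPKM + 1) followed each gene most closely over the 6 libraries were taken from the 7771 that averaged at least 5 FPKM. Only 6 points, which share the difference between the groups, stand behind each correlation, and the values are given as a description. The closest genes were Crtap for Pcsk2 (Pearson's r = 0.998), Dtx4 for Cpe (0.998), Zmat3 for Pam (0.999), Psap for Scg5 (0.998), Pacs1 for Pcsk1n (0.995) and Psmb8 for Ace (0.998). Next to these, Ctr9 followed Pcsk2, Tppp3 followed Cpe, Cpsf7 followed Pam, Pcolce followed Scg5, A4galt followed Pcsk1n and Tnip1 followed Ace, at r between 0.992 and 0.998.

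Peptide processing was then followed beyond these genes in lists of its other parts, taking 97 genes in 8 lists, of which 44 were tested. Of these, 6 were called lower and 1 was called higher in limma, against 4.82% and 4.36% of all genes. The median log2 fold change of the 44 was -0.052. With replicate number as a block, 9 were lower and 4 higher, where 9.75% of all genes were lower and 9.29% higher.

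Other carboxypeptidases of the basic type gave 0 calls among 3 tested in limma, 1 at an unadjusted p under 0.05 and 1 in limma-voom, which was Aebp1 in each case. Aebp1, a secreted matrix protein of this family, was the most abundant at 17.4 ± 0.868 FPKM in si-NC and 21.5 ± 0.949 FPKM in si-circRtn4 (SD, n = 3 each), and all si-circRtn4 values were above all si-NC values (log2 fold change 0.29, standard error 0.073, adjusted p = 0.0504 from limma and 0.0304 with replicate number as a block). The median log2 fold change of the 3 tested was 0.29, which is the value of Aebp1 itself. Cpm was at 0.37 and Cpd at -0.074, so that Cpd had the sign of Cpe.

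Among 5 tested genes that modify peptides or supply the modifying enzymes, 1 was lower and 1 higher. Cyb561, the granule membrane protein that passes electrons to ascorbate for Pam and Dbh, fell from 36.3 ± 0.587 to 20.8 ± 0.392 FPKM (SD, n = 3 each), at a log2 fold change of -0.77 with standard error 0.063 (adjusted p = 0.00139 from limma). Its libraries were at 35.9, 36.0 and 36.9 FPKM in si-NC and at 21.2, 20.5 and 20.7 FPKM in si-circRtn4, so that both groups were tight. Tpst2, which sulfates tyrosines of secreted proteins, rose from 10.4 ± 0.508 to 13.9 ± 1.14 FPKM (log2 fold change 0.39, standard error 0.082, adjusted p = 0.0290 from limma), and this call was lost in each fit that left out 1 library. Atp7a was not called in limma (log2 fold change -0.37, standard error 0.12, adjusted p = 0.108), but it was lower in limma-voom (adjusted p = 0.0447).

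Peptidases that cut secreted peptides outside or inside the cell, apart from Ace and Ece1, gave 0 calls among 9 tested of 17 found, and their median log2 fold change was 0.039. At an unadjusted p under 0.05 in limma 1 passed, and 1 was called in limma-voom, both Dpp4, a dipeptidyl peptidase of the cell surface. Dpp4 was at 2.45 ± 0.0941 FPKM in si-NC and 3.32 ± 0.114 FPKM in si-circRtn4 (log2 fold change 0.32, standard error 0.088, adjusted p = 0.0612 from limma and 0.0459 with replicate number as a block). Ide, the insulin-degrading enzyme, was the most abundant at 25.04 ± 1.996 and 25.7 ± 0.437 FPKM (SD, n = 3 each).

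Of 40 peptide precursors, the substrates of these enzymes, 33 did not reach 1 FPKM and 14 were at 0 in every library. Of the 7 tested, 2 fell. Sct, the precursor of secretin, went from 22.5 ± 4.09 to 4.69 ± 1.09 FPKM (SD, n = 3 each), and Adm, that of adrenomedullin, from 2.57 ± 0.376 to 0.732 ± 0.199 FPKM. On the log2 scale Adm changed by -1.04 with standard error 0.14 (adjusted p = 0.00727 from limma). Adrenomedullin and secretin are both amidated peptides. Amidation was not compared over the other precursors of the list, so nothing is read from this shared trait. The median log2 fold change of the 7 was 0.084, as 4 of them had values above 0. Vgf, by far the most abundant of the 7, was not called, at 186 ± 17.3 FPKM in si-NC and 206 ± 30.1 FPKM in si-circRtn4. Cartpt was not called either (log2 fold change -0.33, standard error 0.12, adjusted p = 0.132 from limma), but with replicate number as a block it was lower at an adjusted p of 0.0433 in limma. The granins, soluble granule proteins that convertases also cut, were all tested. Chga and Chgb fell, to 33.5% and 28.0% of their si-NC means, whereas Scg2 (log2 fold change -0.51, standard error 0.24, adjusted p = 0.219 from limma) and Scg3 (-0.26, standard error 0.090, adjusted p = 0.116 from limma) were not called. With replicate number as a block both were, at an adjusted p of 0.012 for Scg2 and 0.0272 for Scg3 in limma.

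Of 10 genes for granule formation and release, 6 were tested and 1 fell. This was Rab3d, a small GTPase of secretory granules, from 11.7 ± 0.772 to 9.03 ± 0.482 FPKM (SD, n = 3 each; log2 fold change -0.34, standard error 0.079, adjusted p = 0.0393 from limma), and the call was lost in each fit that left out 1 library. Ccdc186 was not called (log2 fold change 0.31, standard error 0.10, adjusted p = 0.107 from limma), but with replicate number as a block it was higher at an adjusted p of 0.0301 in limma. Of 5 tested regulators of peptidergic genes 0 were called in limma or limma-voom, and 1 (Rest) passed an unadjusted p under 0.05. Insm1, a transcription factor of neuroendocrine cells, was the most abundant of them at 74.3 ± 1.52 and 74.2 ± 4.91 FPKM (SD, n = 3 each).

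**Figure D4:**
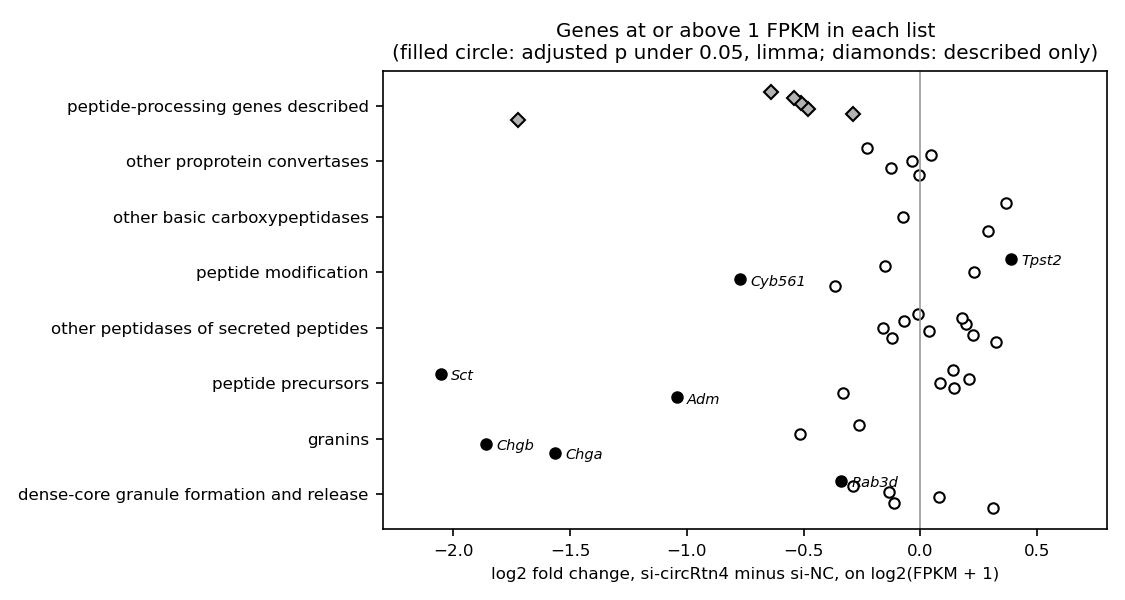
Log2 fold change (horizontal axis, si-circRtn4 minus si-NC, on log2(FPKM + 1)) of the genes tested in 7 lists, with filled circles for an adjusted p under 0.05 in limma and diamonds for the 6 peptide-processing genes, which are described only. Sct, Chgb, Chga, Adm, Cyb561 and Rab3d lie below 0 among the filled circles, and Tpst2 lies above it.

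Seed sites were read in the 3′ UTR of each gene, the longest one annotated, since the siRNA and the miRNA that the study links to circRtn4 can both pair with transcripts through a short seed. The siRNA is printed as listed by the study, with the letters that its guide seed pairs with in capitals, when the guide is taken as the reverse complement. The miRNA is printed from RefSeq with its seed, bases 2 to 8, in capitals.
si-circRtn4: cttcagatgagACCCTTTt
miR-24-3p: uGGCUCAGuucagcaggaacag

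Ace and Pam held 1 site each for the siRNA seed (ACCCTTT), a site found in 12.5% of the 10694 tested genes with such a 3′ UTR. Ace, Pcsk1n and Ece1 held 1 site each for miR-24-3p (CTGAGCC), found in 19.6% of them. Pcsk1, Pcsk2, Cpe and Scg5 held neither. The sites of the fitted genes are shown with the bases around them, the site in capitals, and that of Ece1 (chr4:137964037-137964043) is not printed. In Ace the siRNA seed site covers chr11:105989337-105989343 and the miR-24-3p site chr11:105989120-105989126, in Pam the siRNA seed site covers chr1:97821505-97821511, and in Pcsk1n the miR-24-3p site covers chrX:7923206-7923212 (GRCm38, GENCODE M21).
Ace, siRNA seed site: ccagcacgACCCTTTactggttg
Pam, siRNA seed site: atttggagACCCTTTtggttttt
Ace, miR-24-3p site: taccctagCTGAGCCttcctcct
Pcsk1n, miR-24-3p site: cccatcccCTGAGCCctcaataa

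Among the fitted genes, log2 fold changes were -1.72 for Ace (both sites), -0.48 for Pam (siRNA seed site) and -0.51 for Pcsk1n (miR-24-3p site). Scg5, Pcsk2 and Cpe, with neither site, were at -0.64, -0.54 and -0.29, and Ece1 was not fitted. Whether any of these sites is bound, or bears on these values, was not tested.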

How the data were processed

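RNA sequencing libraries of N2a cells (3 with si-NC, 3 with si-circRtn4) were grouped by their titles, which are also the headers of the table. Values are FPKM as the authors deposited them, beside each gene's length and coordinates. The submitters' processing notes name Bowtie 0.12.2 and the builds mm8 and mm9 without a role, whereas 98.3% of the genes have the coordinates of GRCm38 in GENCODE M21. The counting tool is not given in the sources used here. A further 6 columns belong to no sample of the series and were left out.

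Reads were recovered as FPKM times length divided by the smallest such product, which came out whole for 100% of the values (within 0.01 read). Genes averaging at least 1 FPKM entered limma 3.58.1 (R 4.3.3) on the log2(FPKM + 1) scale, using lmFit and then eBayes with a mean-variance trend, and p-values were adjusted over all of them by the Benjamini-Hochberg method. On simulated data for this comparison (12773 genes, a fold of 2, dispersion 0.01), 85.1% of changed genes were recovered and 6.43% of calls were false. The simulated libraries were independent, so these rates do not carry over to smaller folds or to libraries that deviate together.

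Libraries sharing a replicate number deviated together from their group means (r = 0.331, 0.190 and 0.226, and at most 0.00913 for other pairs), so the numbers were treated as pairs in a fit with a block, as a hint from the data. Deviations cancel within a group, so the values of the other pairs are not independent of those of the same-numbered pairs. Neither the labels nor the study say what the numbers share.

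The 8 genes, the lists and the tests were chosen with earlier results of these data known. Named besides the 8 genes were called genes of each list (at most the 3 with the largest change), the most abundant gene of a list without a call, and the 2 most similar genes per gene. Other convertases, Atp7a, Cartpt, Ccdc186, Cpd, Cpm, Dpp4, Gm3531, Pcsk2os1, Rest, Scg2, Scg3, Tubb3, Vgf and Ace3 were named after their values were seen. 1 listed symbol (Nrdc) was not found. A gene was left out of the convertase list and is not reported here. Promoters and miR-24-3p come from RefSeq (GRCm38.p6), and 3′ UTRs from GENCODE M21. Alternatives were another pseudocount, filters, TPM with and without Gm23935, quantile normalization, limma-voom, no variance trend, the block and each library left out. The other steps ran in Python 3.11.15 (pandas 2.3.3, matplotlib 3.10.9).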

Additional observations from a re-analysis of the deposited data

How the results depend on the processing

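The log2 fold changes of Ace, Pcsk2, Pam, Scg5, Pcsk1n and Cpe stayed below 0 in every alternative that could fit them. Values moved by more than the spread between replicates with a pseudocount of 0.1 (Ace -2.08, Pam -0.59, Pcsk2 -0.94) and with limma-voom (Ace -2.10, Pam -0.58, Pcsk2 -0.997), both of which remove the damping of low values by the pseudocount of 1. Leaving out 1 library gave -1.79 to -1.62 for Ace, -0.33 to -0.23 for Cpe, -0.53 to -0.41 for Pam, -0.56 to -0.41 for Pcsk1n, -0.59 to -0.49 for Pcsk2 and -0.70 to -0.59 for Scg5.

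Of these 6 genes, 5 were called lower, a count given as a description only. The count was 2 without a filter on low values and 3 with a mean of at least 5 FPKM, where Pam and Pcsk2 were no longer tested, and 2 to 4 with 1 library left out. It was 2 when the library left out was replicate 2 of si-NC or replicate 1 or 2 of si-circRtn4, and 3 without si-NC replicate 3 or si-circRtn4 replicate 3. With the replicate block it was 6. The share of all genes called in either direction also moved, from 9.19% in the reported fit to 1.66% without a filter. It was 12.1% with a mean of at least 5 FPKM, 2.98% to 6.48% with 1 library left out and 19.0% with the replicate block.

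Over all genes, the replicate block gave 1185 higher and 1243 lower, no filter 210 and 261, TPM 977 and 400 (593 and 541 with Gm23935 removed first, where the median log2 fold change of all genes was 0.021 in place of 0.082), and limma-voom 903 higher, while leaving out 1 library gave 163 to 407 higher and 217 to 419 lower, the fewest without si-NC replicate 2. Of the genes in the pathway lists, 6 were lower in the reported fit and 5 to 9 over the alternatives. Higher genes numbered 4 with the replicate block, 3 with TPM or limma-voom, 2 without the variance trend or with a mean of at least 5 FPKM, and 0 without a filter or in each fit that left out 1 library (0 to 0). The cause of the other changes was not tested. Depth limits what can be said of Pcsk1 and Ece1, with 0 to 4 reads per library.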
